A study of Mus musculus with 92 samples.

Results

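A set of 10 target genes of the transcription factor p53 was followed through 92 mouse RNA-seq libraries, from intestinal tissue and cultures with or without deletion of the translation factor gene Eif4g2 and from organoids given an acetyltransferase inhibitor, A-485, or its solvent. The 10 genes were taken by name from the 54532 genes of each deposited count table, and each name matched 1 row in each of the 4 tables. They are Cdkn1a, Mdm2, Ccng1, Zmat3, Phlda3, Eda2r, Bax, Bbc3, Trp53inp1 and Aen. In brief, Zmat3 was higher after Eif4g2 deletion in 8 of 9 comparisons, Ccng1 and Phlda3 in 7 of 9, and Bbc3 and Trp53inp1 in 3 and 2 of 9. Some of those comparisons share libraries, and from 10.5% to 46.8% of all genes were called in them in either direction. The share of all genes called in as many of the 9 was not counted. The counts are from fits without a line block. With that block, flox/flox spheroids gave further calls of Ccng1, Phlda3 and Trp53inp1. Mdm2 was higher in 7 and lower in 1, the only member called lower in those 9. That lower call, in Rosa26-CreER villi, was near the threshold and held in 2 of 10 fits that left out 1 library. A-485 raised 8 of the 10 genes at 10 µM, where 29.4% of all genes were called higher and 62% in either direction, and left Bbc3 and Aen without a call.

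Eif4g2 encodes a relative of the initiation scaffold eIF4G that lacks the cap-binding factor's docking site. Crypts, which hold the stem and dividing cells of the intestinal lining, and villi, which hold its differentiated cells, came from tamoxifen-treated mice that carried either a ubiquitously expressed CreER at Rosa26, collected on day 9, or the gut-epithelial Vil1-CreER, collected at 3 months. Homozygous mice were Eif4g2 flox/flox and the heterozygous controls were flox/+, so the controls also carried CreER, received tamoxifen and could lose 1 allele. The Rosa26-CreER groups held 4 homozygous and 5 heterozygous crypt libraries and 5 and 5 villus libraries, and the Vil1-CreER groups held 3 and 4 crypt and 6 and 4 villus libraries. Vil1-CreER mice were given 100 mg/kg tamoxifen daily in 4 injections, and the age of the mice is not given in the sources used here. Adult small intestinal organoids and fetal intestinal spheroids, epithelial cultures grown in medium with EGF, Noggin and R-spondin, were all Rosa26-CreER. They received 0.5 µM 4-hydroxytamoxifen (4-OHT), which activates CreER, or its solvent DMSO for 24 h and were collected on day 6. The first organoid set held 3 flox/flox lines with DMSO and with 4-OHT. The second held 4 flox/flox, 4 flox/+ and 4 Eif4g2 +/+ (CreER-only) cultures, all with 4-OHT. Spheroids came from 6 flox/flox and 5 flox/+ lines, each with DMSO and with 4-OHT. Names of these lines begin with S9484 in flox/flox lines only, S9612 in flox/+ lines only, and S9488 or S9020 in both. This number thus overlaps with genotype, and its part in the results was not tested. In the A-485 experiment 4 organoid lines, 1 Eif4g2 +/+ and 3 flox/flox without 4-OHT, received DMSO or A-485 at 3, 5 or 10 µM for 4 days, and each line gave 1 library per dose. The series text speaks of wild-type organoids there, and the genotypes given here are those of the sample labels. Line S6070 occurs both there and in the first organoid set.

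p53 is held low in unstressed cells because Mdm2, the product of one of its own targets, marks it for degradation. Stress signals stabilise p53, which then binds DNA as a tetramer and raises genes that stop the cell cycle, remove damaged cells or feed back on p53 itself. In the intestine this response is best known from irradiated crypts, where p53 and its target Bbc3 take part in the death and recovery of epithelial cells. The 10 genes cover these roles. Cdkn1a encodes p21, an inhibitor of cyclin-dependent kinases that stops the cell cycle. Mdm2 and Ccng1 belong to the feedback arm: Mdm2 is the ubiquitin ligase for p53, and cyclin G1 brings the phosphatase PP2A to Mdm2. Zmat3 is a zinc-finger RNA-binding protein, and Phlda3 is a small PH-domain protein that competes with the kinase Akt for membrane lipids. The death arm holds Bax, which opens the outer mitochondrial membrane, Bbc3 (Puma), a BH3-only protein that releases Bax from its inhibitors, Eda2r, a TNF-receptor family member that binds ectodysplasin A2, Aen, a nuclease linked to apoptosis, and Trp53inp1, a stress protein that acts with p53 and in autophagy.

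All 10 are protein-coding genes, at these GRCm38 positions: Cdkn1a on chr17:29090976-29100727 (plus strand), Mdm2 on chr10:117688875-117710758 (minus), Ccng1 on chr11:40748552-40755311 (minus) and Zmat3 on chr3:32334792-32366014 (minus). Phlda3 lies on chr1:135766119-135769136 (plus), Trp53inp1 on chr4:11156431-11174379 (plus) and Eda2r on the X chromosome, chrX:97333840-97377216 (minus). Bax at chr7:45461697-45466898 (minus), Bbc3 at chr7:16308393-16318205 (plus) and Aen at chr7:78895854-78911209 (plus) share chromosome 7. RefSeq promoter windows, from 250 bases before to 50 after a start site in GRCm38.p6, were at hand for 8 of the 10 genes, not for Trp53inp1 and Zmat3. They were searched on both strands for the 10-base p53 half-site consensus, which reads the same on either strand. It was present in 6 of the 12 windows, belonging to Cdkn1a, Mdm2, Ccng1, Bax and Aen, against 8.36% of all 32851 promoter windows. The 2 Aen windows overlap and hold the same site, which is counted in both. A pair of half-sites at most 13 bases apart, with up to 2 mismatches in all, was present for Cdkn1a, Ccng1 and Bax, against 4.09% of all windows. These 3 windows are printed because p53 binds such pairs. Each of the 3 held 2 such pairs, and capitals mark only 1 of them. The marked pair has the fewer mismatches or, where these are equal, the fewer bases between its half-sites. A match describes the letters and not binding.
Cdkn1a, chr17:29090729-29091028, plus strand: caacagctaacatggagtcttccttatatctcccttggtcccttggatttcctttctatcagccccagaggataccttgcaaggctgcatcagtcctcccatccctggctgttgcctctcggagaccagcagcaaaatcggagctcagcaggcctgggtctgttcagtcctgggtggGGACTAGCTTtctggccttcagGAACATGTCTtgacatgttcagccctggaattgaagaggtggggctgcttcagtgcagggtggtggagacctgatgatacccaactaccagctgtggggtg
Ccng1, chr11:40755237-40755536, minus strand: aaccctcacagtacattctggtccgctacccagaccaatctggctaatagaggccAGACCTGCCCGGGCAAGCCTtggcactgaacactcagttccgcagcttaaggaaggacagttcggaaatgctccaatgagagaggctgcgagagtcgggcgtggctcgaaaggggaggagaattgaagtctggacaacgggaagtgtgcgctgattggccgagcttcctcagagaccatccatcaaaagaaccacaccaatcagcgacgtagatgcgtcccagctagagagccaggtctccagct
Bax, chr7:45466849-45467148, minus strand: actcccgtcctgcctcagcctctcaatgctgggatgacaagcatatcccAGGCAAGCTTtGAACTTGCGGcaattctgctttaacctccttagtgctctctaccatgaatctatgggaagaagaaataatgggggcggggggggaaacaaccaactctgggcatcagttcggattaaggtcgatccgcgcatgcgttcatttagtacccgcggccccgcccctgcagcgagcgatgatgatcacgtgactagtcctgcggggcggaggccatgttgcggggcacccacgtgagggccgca
The marked Cdkn1a pair begins 73 bases before the start site and matched the consensus without a mismatch, with 12 bases between its half-sites. Its second half-site, 51 bases before the start site, is also the first of the other, unmarked pair. That pair has 1 mismatch and no bases between its half-sites. The Ccng1 pair, 195 bases before the start site, has 1 mismatch and no bases between its half-sites, and the Bax pair, 201 bases before it, has 2 mismatches and 1 base between. Mdm2 had a single half-site 186 bases before its start site and Aen 1 within its windows. Eda2r, Phlda3, Bbc3 and the second Cdkn1a window held no exact half-site in these letters.

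Library totals ran from 8652040 to 37611126 reads, the lowest being an A-485 library. Levels are CPM, counts relative to a library size scaled by the trimmed mean of M-values (TMM) within each table, so levels from different tables are not compared. A log2 fold change is the base-2 logarithm of the ratio of group levels fitted by edgeR's quasi-likelihood test, and a gene is called when its Benjamini-Hochberg adjusted p over all genes tested is under 0.05. Eif4g2 itself was lower in the deleted groups of all 9 deletion comparisons, for instance at 86.5 ± 14.3 CPM (SD, n = 4) in homozygous and 356 ± 9.03 CPM (n = 5) in heterozygous Rosa26-CreER crypts, and at 236 ± 7.098 (n = 3) against 489.5 ± 10.1 CPM (n = 4) in Vil1-CreER crypts. In the bulk tissue libraries, fewer cells of a type and less RNA per cell cannot be told apart. All 7 pan-epithelial markers (Epcam, Cdh1, Krt8, Krt18, Krt19, Vil1 and Cldn7) were detected in each group. Of the 11 spheroid lines 4 stood apart: flox/flox lines 1 and 3 and flox/+ lines 4 and 5 had 3110 to 10549 summed CPM of 5 crypt stem cell markers (Lgr5, Olfm4, Ascl2, Smoc2, Axin2) with DMSO, and the other 7 lines had 114 to 412 CPM. In the Rosa26-CreER groups the Y-linked gene Ddx3y was above 1 CPM in all heterozygous libraries and in 1 of 4 homozygous crypt and 2 of 5 homozygous villus libraries, so sex, which the labels do not give, overlaps with genotype there.

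Per kilobase of gene model, which allows genes to be compared within a table, Ccng1 or Cdkn1a stood first in each group. In heterozygous Rosa26-CreER villi Cdkn1a led at 102 ± 9.15 CPM per kb (SD, n = 5) and Eda2r was last at 0.0107 ± 0.00823. In heterozygous crypts of the same mice Ccng1 was at 20.7 ± 1.45, Cdkn1a at 14.98 ± 3.38 and Bax at 14.5 ± 0.842 CPM per kb, the last 2 within their spread of each other. In flox/+ organoids with 4-OHT the order was led by Ccng1 (44.5 ± 8.501), Cdkn1a (26.4 ± 3.88) and Bax (20.02 ± 2.02) and closed by Eda2r (0.974 ± 0.619 CPM per kb, n = 4).

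The first question was whether the genes differ between crypts and villi when at least 1 copy of Eif4g2 remains. Cdkn1a and Mdm2 were lower in crypts than in villi and Eda2r, Aen and Phlda3 were higher, in heterozygous mice. Cdkn1a levels were 67.97, 43.98, 46.9, 64.4 and 42.8 CPM in the 5 Rosa26-CreER crypt libraries and 359.96, 407, 339, 382 and 326 CPM in the villus libraries, with no overlap. The log2 difference, crypt minus villus, was -2.83 ± 0.15 (SE, adjusted p = 6.49e-09), and it was -2.87 ± 0.16 (SE, adjusted p = 2.03e-07) in Vil1-CreER mice. Aen, at 16.8, 19.3, 17.3, 14.8 and 19.2 CPM in crypts and 1.57, 1.56, 3.19, 2.08 and 1.402 CPM in villi, went the other way, by 3.096 ± 0.22 (SE, adjusted p = 8.55e-08) and 2.53 ± 0.15 (SE, adjusted p = 3.47e-07) in the 2 kinds of mice. Mdm2 was lower in crypts, with differences of -1.64 ± 0.08 (SE, adjusted p = 4.38e-09) and -1.19 ± 0.09 (SE, adjusted p = 1.69e-06). Eda2r was higher in crypts by 5.24 ± 0.44 (SE, adjusted p = 3.46e-07) and 4.14 ± 0.70 (SE, adjusted p = 0.00038), against villus libraries that held 0 to 3 and 0 to 4 reads of it. Phlda3 was higher in Rosa26-CreER crypts by 3.35 ± 0.71 (SE, adjusted p = 0.000926) and was not tested in Vil1-CreER mice, where villus libraries held 0 to 5 reads. In all, 7 of 10 genes were called in Rosa26-CreER and 6 of 9 in Vil1-CreER mice, where 77.1% and 67.9% of all genes tested were called, a share of members close to or below the background. The others called were Bax, higher by 0.31 ± 0.10 in Rosa26-CreER crypts, Bbc3, lower in Vil1-CreER crypts (-1.16 ± 0.21), and Zmat3, lower in both (-0.33 ± 0.12 and -0.46 ± 0.11); the Rosa26-CreER call of Zmat3 held in 4 of 10 fits that left out 1 library, with adjusted p up to 0.112 (without heterozygous villus replicate 2).

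The deletion question was put first to Rosa26-CreER crypts on day 9. In these, 6 of the 10 genes were higher in homozygous crypts (Mdm2, Eda2r, Ccng1, Bax, Phlda3 and Zmat3), none was lower, and 8.63% of all 15846 genes tested were called higher (20.2% in either direction). The 6 called genes were also free of overlap between groups, as were 5.55% of all genes in that direction. The members' median log2 fold change was 0.67, beside 0.04 over all genes tested. Ccng1, the feedback cyclin, was at 169, 137, 167 and 192 CPM in the 4 homozygous and 71.3, 78.6, 64.9, 75.03 and 73.4 CPM in the 5 heterozygous libraries. Each homozygous library lay above each heterozygous one, and the log2 fold change was 1.26 ± 0.09 (SE, adjusted p = 0.000104). Zmat3, the RNA-binding protein, was at 37.01, 30.5, 39.2 and 50.5 against 14.8, 17.97, 13.8, 12.1 and 13.7 CPM, again without overlap, for 1.499 ± 0.13 (SE, adjusted p = 0.000266). Phlda3, the Akt competitor, had the largest change of the 10: it was at 7.22, 11.3, 11.5 and 13.03 CPM in homozygous and 1.63, 2.15, 3.57, 1.503 and 1.004 CPM in heterozygous crypts, a log2 fold change of 2.501 ± 0.36 (SE, adjusted p = 0.00207). Among the death genes, Bax stood at 29.1, 45.04, 33.5 and 44.4 against 21.7, 22.5, 21.9, 23.4 and 24.9 CPM, for 0.80 ± 0.13 (SE, adjusted p = 0.00311), and the groups did not overlap. Eda2r was at 4.403, 8.01, 8.39 and 8.92 against 1.82, 3.63, 3.41, 2.504 and 2.55 CPM, for 1.48 ± 0.26 (SE, adjusted p = 0.00532), likewise without overlap. Mdm2 changed least of the called genes, from 23.6, 19.9, 22.6, 26.6 and 21.8 CPM in heterozygous to 33.1, 32.6, 30.6 and 29.9 CPM in homozygous crypts, for 0.53 ± 0.11 (SE, adjusted p = 0.00985). Cdkn1a was not called: its levels of 114, 52.99, 64.3 and 49.97 and 67.97, 43.98, 46.9, 64.4 and 42.8 CPM overlapped, the highest being homozygous replicate 1, and its log2 fold change was 0.47 ± 0.28 (SE, adjusted p = 0.246). Bbc3 at 0.11 ± 0.15, Trp53inp1 at -0.01 ± 0.20 and Aen at 0.38 ± 0.15 were not called either, and their groups overlapped.

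Homozygous Rosa26-CreER crypts also differed in the markers of their cells and in RNA. Summed stem cell markers were 202 to 876 CPM in homozygous and 3865 to 6649.6 in heterozygous crypts, and 6 proliferation markers were 390.1 to 736 and 778 to 982 CPM. Stromal and muscle markers ranged over 42.98 to 2125 and 38.9 to 691 CPM, and immune markers over 124 to 1874 and 194 to 839 CPM. Homozygous replicate 5 had the lowest values of both within its group, 42.98 and 124 CPM, and the highest Ccng1, Phlda3, Zmat3, Eda2r, Bbc3 and Aen of the 9 crypt libraries. Mitochondrial reads were on average 18.9% of homozygous and 8.55% of heterozygous libraries. Replicate 5 is 1 library. The part of the stem cell, proliferation, stromal, muscle, immune and mitochondrial differences in the results was not tested. Of the homozygous crypt libraries only replicate 1 was above 1 CPM of Ddx3y. With Ddx3y status as a covariate the genotype effect therefore rests on that 1 library, and only its size is given. The log2 fold change was then 1.19 for Cdkn1a, 0.76 for Eda2r and 0.45 for Bax.

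In villi of the same mice 4 of the 9 members tested were higher in homozygous libraries (Ccng1, Zmat3, Phlda3 and Cdkn1a) and 1, Mdm2, was lower. Of all genes tested 15% were called higher and 18.2% lower (33.2% in all). Ccng1 was at 103, 117, 99.5, 102 and 82.8 CPM in homozygous and 71.8, 65.2, 50.7, 49.8 and 65.9 CPM in heterozygous villi, with no overlap and a log2 fold change of 0.66 ± 0.12 (SE, adjusted p = 0.00197). Zmat3 was at 26.01, 29.8, 29.1, 25.8 and 26.6 against 16.3, 21.1, 14.4, 17.6 and 17.96 CPM, for 0.58 ± 0.10 (SE, adjusted p = 0.00119), and did not overlap. Both were called in each of 10 fits that left out 1 library. Cdkn1a was at 549, 434, 425, 479.9 and 436 CPM in homozygous and 359.96, 407, 339, 382 and 326 CPM in heterozygous villi, for 0.29 ± 0.10 (SE, adjusted p = 0.0496). Mdm2, the p53 ubiquitin ligase, was at 62.5, 60.6, 50.3, 61.3 and 63.5 against 69.8, 68.4, 65.9, 67.8 and 68.98 CPM, for -0.27 ± 0.09 (SE, adjusted p = 0.0327). Neither gene's groups overlapped, yet both calls were near the threshold: Cdkn1a was called in 3 and Mdm2 in 2 of the 10 fits without 1 library, with adjusted p up to 0.122 (without heterozygous replicate 5) and 0.0943 (without homozygous replicate 3). Phlda3 was at 0.549, 0.579, 2.46, 0.6001 and 0.707 CPM against 0.115, 0.134, 0.6504, 0.0521 and 0 CPM, from 12 to 54 and 0 to 11 reads, and its groups overlapped. Its log2 fold change was 2.31 ± 0.79 (SE, adjusted p = 0.0415), called in 5 of the 10 such fits, with adjusted p up to 0.126 (without homozygous replicate 3). The count of called members ran from 3 to 6 over these fits and was 3 with Ddx3y status as a covariate, under which Cdkn1a, Mdm2 and Phlda3 were not called (adjusted p = 0.0696, 0.208 and 0.288) and Trp53inp1 was called lower at -1.17 (adjusted p = 0.0181). With that covariate the genotype effect rests on the 2 homozygous villus libraries above 1 CPM of Ddx3y. Aen, not called here at 0.73 ± 0.28 (SE, adjusted p = 0.0609), was called by DESeq2 (0.75, adjusted p = 0.0255). Eda2r, at 7 to 32 reads in homozygous and 0 to 3 in heterozygous libraries, was too low to be tested in villi alone. Homozygous villi had fewer immune marker reads, 198 to 383 against 458 to 1102 CPM, and more proliferation marker reads, 95.9 to 138 against 61.1 to 87.8 CPM. Goblet cell markers summed to 1541 to 7723 and 4283 to 11684 CPM, enteroendocrine markers to 46.1 to 268 and 298 to 566 CPM and tuft cell markers to 16.5 to 60.5 and 61.1 to 307 CPM. The part of these markers in the results was not tested.

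The genotype effect itself differed between villi and crypts for 2 of the 10 genes, Mdm2 and Zmat3, where 11.5% of all genes tested differed. Villus minus crypt, the effect on Mdm2 differed by -0.69 ± 0.12 (SE, adjusted p = 0.00234) on the log2 scale, its fold change being above 0 in crypts and below 0 in villi, and the effect on Zmat3 by -0.82 ± 0.18 (SE, adjusted p = 0.0101). Eif4g2 itself differed by -0.62 ± 0.15. For Ccng1 the difference was -0.49 ± 0.16 (SE, adjusted p = 0.0568) and for Bax -0.51 ± 0.19 (SE, adjusted p = 0.0798), neither called.

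**Figure D1:**
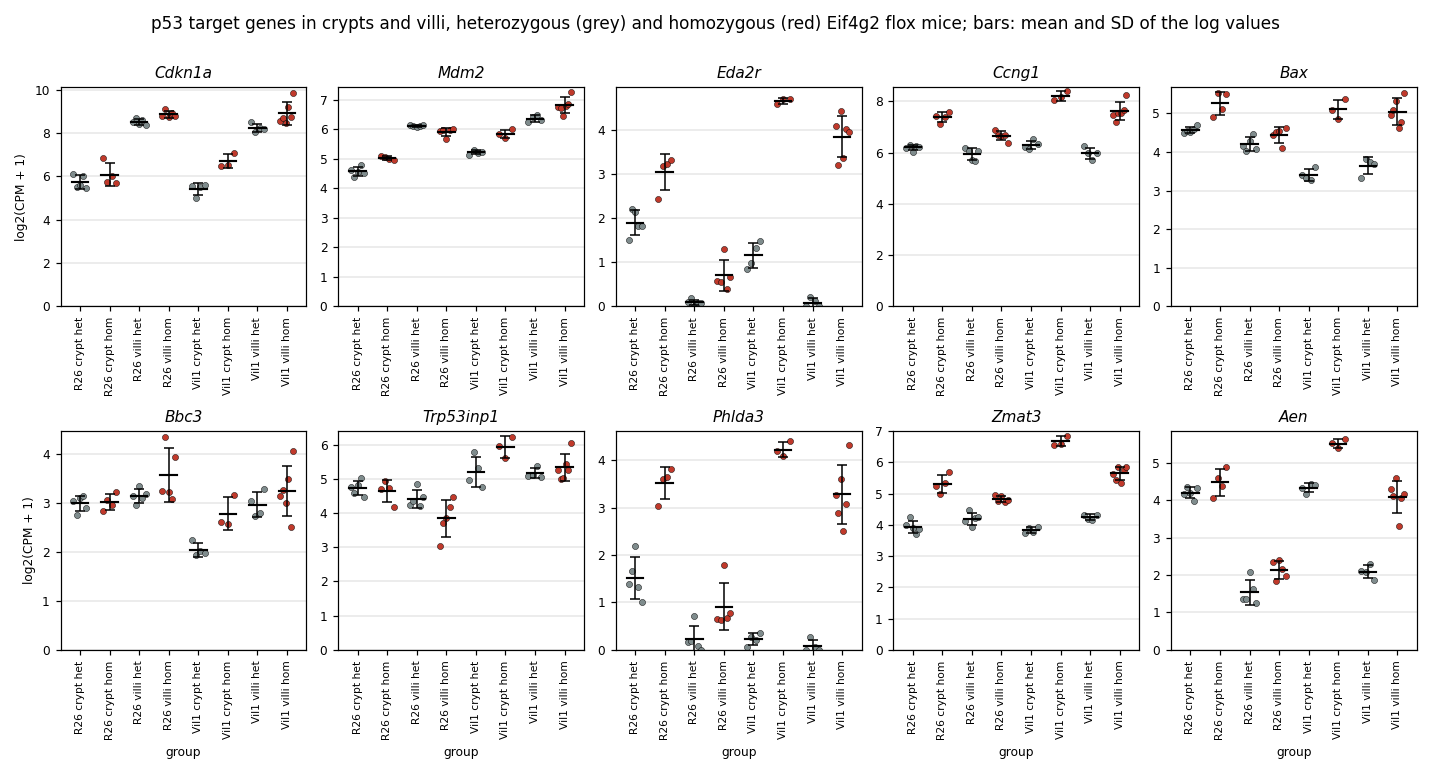
Levels of the 10 p53 target genes in crypt and villus libraries, as log2(CPM + 1) on the vertical axis, by group on the horizontal axis; each point is a library, red for homozygous and grey for heterozygous mice, and bars give the mean and SD of the log values. Rosa26-CreER (R26) and Vil1-CreER libraries were scaled separately; Phlda3 and Eda2r sit at or near 0 in heterozygous villi and Cdkn1a is higher in villi than in crypts.

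At 3 months after deletion with Vil1-CreER more of the genes were called. In crypts 9 of 10 genes were higher in homozygous mice, all but Trp53inp1, where 11.6% of all genes tested were called higher (29.3% in either direction). The groups of those 9 genes did not overlap, as was true in that direction of 13.9% of all genes. The median log2 fold change of the 10 was 1.62, against 0.01 over all genes. Phlda3 rose from 0.04895, 0.2101, 0.155 and 0.285 CPM in the 4 heterozygous libraries, 2 to 13 reads, to 20.2, 17.3 and 15.98 CPM in the 3 homozygous ones, a log2 fold change of 6.695 ± 0.37 (SE, adjusted p = 4.58e-05). Eda2r rose from 0.808, 0.9805, 1.49 and 1.78 to 24.9, 22.8 and 24.9 CPM, for 4.33 ± 0.25 (SE, adjusted p = 4.58e-05). Both genes were below 2 CPM in each heterozygous crypt library and above 15 CPM in each homozygous one. Zmat3 was at 115, 94.03 and 95.95 against 12.4, 13.9, 12.7 and 14.3 CPM, for 3.002 ± 0.10 (SE, adjusted p = 6.16e-06), and had the smallest adjusted p of the 10. Ccng1 was at 339.6, 264 and 286 against 74.3, 69.4, 90.5 and 79.7 CPM, for 1.98 ± 0.13 (SE, adjusted p = 5.76e-05). Bax, the mitochondrial pore protein, was at 40.3, 32.9 and 28.1 against 9.64, 9.06, 8.63 and 11.3 CPM, for 1.87 ± 0.14 (SE, adjusted p = 0.000106). None of these groups overlapped. Cdkn1a was called here, at 132, 87.1 and 91.7 against 45.4, 31.2, 45.1 and 47.9 CPM, for 1.36 ± 0.19 (SE, adjusted p = 0.00214), and so was Bbc3, at 7.96, 5.12 and 4.98 against 3.72, 2.82, 3.07 and 2.92 CPM, for 1.01 ± 0.23 (SE, adjusted p = 0.0121). Aen rose by 1.28 ± 0.10 (SE, adjusted p = 0.00011) and Mdm2 by 0.71 ± 0.09 (SE, adjusted p = 0.00119). Trp53inp1, at 74.6, 60.9 and 47.9 against 30.3, 53.7, 38.6 and 26.05 CPM, overlapped between groups through heterozygous replicate 2, and its log2 fold change was 0.78 ± 0.29 (SE, adjusted p = 0.0869); it was called, with the other 9, when that library was left out. Stem cell markers summed to 278 to 529 CPM in homozygous and 4983 to 5787 in heterozygous crypts and proliferation markers to 744 to 918 and 1082 to 1429 CPM, while mitochondrial reads averaged 35.7% and 23.3% of libraries. Their part in the results was not tested.

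In Vil1-CreER villi 8 of 10 genes were higher in homozygous mice, against 20.9% of all genes tested (42.5% in either direction), and Bbc3 and Trp53inp1 were not called. Eda2r had 0 to 4 reads in the 4 heterozygous libraries, where 2 libraries with 0 reads allow up to 0.161 and 0.132 CPM (3 reads, counting error only). The 6 homozygous libraries held 8.17 to 20.6 (median 14.8) CPM, or 185 to 535 reads, and the fitted log2 fold change was 7.58 ± 0.53 (SE, adjusted p = 3.53e-07). Phlda3 had 0 to 5 reads in heterozygous and 4.73 to 19.1 (median 8.06) CPM in homozygous villi, for 7.04 ± 0.68 (SE, adjusted p = 6.72e-06). The fitted size of both changes depends on these few control reads and is no bound. Aen, the nuclease, was at 3.33, 3.19, 3.89 and 2.64 CPM in heterozygous and 8.88 to 23.3 (median 16.6) CPM in homozygous villi, for 2.33 ± 0.24 (SE, adjusted p = 9.80e-06). Ccng1 was at 74.5, 62.2, 51.3 and 62.8 CPM against 147 to 307 (median 185) CPM, for 1.66 ± 0.19 (SE, adjusted p = 2.20e-05). Zmat3 was at 18.99, 17.4, 16.7 and 19.1 CPM against 39.7 to 56.9 (median 51.1) CPM, for 1.45 ± 0.13 (SE, adjusted p = 2.24e-06), and Bax at 9.09, 13.1, 12.4 and 11.9 against 23.6 to 45.4 (median 31.5) CPM, for 1.49 ± 0.19 (SE, adjusted p = 4.83e-05). These 6 genes did not overlap between groups, nor did 13.4% of all genes in that direction. Cdkn1a did overlap, at 363, 265, 296 and 286 CPM in heterozygous and 347 to 929.6 (median 418) CPM in homozygous villi, for 0.75 ± 0.26 (SE, adjusted p = 0.0324). It was called in 6 of 10 fits that left out 1 library, with adjusted p up to 0.1 (without heterozygous replicate 2). Mdm2, for 0.46 ± 0.14 (SE, adjusted p = 0.0211), was called in 8 of them, with adjusted p up to 0.065 (without heterozygous replicate 1). The highest Cdkn1a, Ccng1, Bax, Mdm2, Phlda3, Bbc3 and Trp53inp1 of the 6 were all in homozygous replicate 1. Immune markers summed to 108 to 412 CPM in homozygous and 603 to 1203 in heterozygous villi and proliferation markers to 117 to 323 and 91.97 to 124 CPM. Goblet cell markers summed to 913 to 1637 CPM in homozygous and 6039 to 10019 CPM in heterozygous villi, enteroendocrine markers to 56.01 to 104 and 416 to 715 CPM and tuft cell markers to 3.77 to 6.43 and 65.2 to 108 CPM, all without overlap. The part of these markers was not tested.

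The Vil1-CreER genotype effect differed between villi and crypts for 3 genes, where 15.5% of all genes tested differed. For Eda2r the fitted villus minus crypt difference was 3.303 ± 0.67 (SE, adjusted p = 0.00536), a size that rests on heterozygous villi with 0 to 4 reads and is no bound. The effect was larger in villi for Aen by 1.07 ± 0.29 (SE, adjusted p = 0.02), and the Zmat3 effect differed by -1.53 ± 0.17 (SE, adjusted p = 0.000157), being smaller in villi. The Aen difference was lost without homozygous crypt replicate 3 (adjusted p = 0.0528). Zmat3 thus had a smaller genotype effect in villi than in crypts with both drivers. For Phlda3 the difference was 0.41 ± 0.90 (SE, adjusted p = 0.795) and for Cdkn1a -0.58 ± 0.38 (SE, adjusted p = 0.318), neither called.

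Organoids are epithelial cultures, and the 9 immune markers summed to at most 1.55 CPM in any of their libraries. In the first set, flox/flox lines given 4-OHT had 9 of the 10 genes called higher than with DMSO, all but Cdkn1a, where 18.2% of all genes tested were called higher (35.4% in either direction). The groups of all 10 genes were free of overlap in the higher direction, as were 27.6% of all genes, and the median log2 fold change was 0.99, against 0.03 over all genes. Zmat3 went from 134, 111 and 96.8 CPM with DMSO to 320.3, 274 and 341 CPM with 4-OHT in the 3 lines, for 1.43 ± 0.14 (SE, adjusted p = 0.000703). Eda2r went from 25.6, 18.6 and 12.7 to 57.2, 42.9 and 58.3 CPM, for 1.46 ± 0.25 (SE, adjusted p = 0.00469). Trp53inp1, the stress protein, went from 74.5, 77.3 and 49.9 to 186, 149 and 116 CPM, for 1.14 ± 0.21 (SE, adjusted p = 0.00639). Each of the 3 genes was higher with 4-OHT in every line. Phlda3 rose by 1.16 ± 0.20 (SE, adjusted p = 0.00495), Ccng1 by 1.03 ± 0.17 (SE, adjusted p = 0.00347), Mdm2 by 0.96 ± 0.10 (SE, adjusted p = 0.000894) and Bax by 0.79 ± 0.11 (SE, adjusted p = 0.00178). Aen and Bbc3 rose by 0.67 ± 0.15 (SE, adjusted p = 0.0114) and 0.68 ± 0.18 (SE, adjusted p = 0.023). Bbc3 was called in 3 of 6 fits without 1 library, with adjusted p up to 0.0809 (without 4-OHT replicate 2), and Aen in 5 of 6 (adjusted p = 0.0501 without DMSO replicate 2). Cdkn1a, in contrast, was at 330.3, 324 and 291 CPM with DMSO and 334, 345 and 335 CPM with 4-OHT, for 0.08 ± 0.08 (SE, adjusted p = 0.462). Stem cell markers summed to 1142 to 1603 CPM with DMSO and 198 to 254 with 4-OHT, and their part in the results was not tested. This set has no 4-OHT library of another genotype, so deletion and 4-OHT cannot be told apart within it.

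The second set holds that control, since all cultures had 4-OHT. Its genotypes came from separate cultures without DMSO libraries, so deletion and other differences between the cultures cannot be told apart within it. All 10 genes were higher in flox/flox than in flox/+ organoids, where 22.6% of all genes tested were called higher (46.8% in either direction). Zmat3 was at 123, 137, 156 and 156 CPM in flox/flox and 43.7, 29.8, 28.8 and 31.5 CPM in flox/+ organoids, for 2.09 ± 0.18 (SE, adjusted p = 3.63e-06). Ccng1 was at 339.8, 384, 499.6 and 457 against 201, 139, 147 and 139 CPM, for 1.42 ± 0.21 (SE, adjusted p = 0.000272), and Phlda3 at 15.8, 20.4, 30.6 and 27.2 against 11.6, 4.45, 6.14 and 5.97 CPM, for 1.74 ± 0.34 (SE, adjusted p = 0.00159). None of these 3 genes overlapped between the genotypes. Eda2r was at 14.9, 25.2, 38.3 and 52.6 against 0.555, 7.09, 9.03 and 6.28 CPM, for 2.49 ± 0.62 (SE, adjusted p = 0.00824), with flox/+ replicate 1 far under the other flox/+ cultures. In all, 8 of the 10 genes were free of overlap, as were 19.9% of all genes in that direction. Cdkn1a was at 94.8, 127, 152 and 156 against 114, 88.7, 86.7 and 85.6 CPM, overlapping through flox/flox replicate 1 and flox/+ replicate 1, for 0.49 ± 0.18 (SE, adjusted p = 0.0404). Bax rose by 0.82 ± 0.13 (SE, adjusted p = 0.00012), Mdm2 by 0.67 ± 0.12 (SE, adjusted p = 0.000515), Bbc3 by 0.47 ± 0.11 (SE, adjusted p = 0.00326), Trp53inp1 by 0.88 ± 0.27 (SE, adjusted p = 0.0217) and Aen by 0.30 ± 0.11 (SE, adjusted p = 0.033). In 8 fits that left out 1 culture, Cdkn1a and Aen were called in 2 each and Trp53inp1 in 3, with adjusted p up to 0.109 and 0.0657 (both without flox/flox replicate 3) for Cdkn1a and Trp53inp1, and 0.075 (without flox/+ replicate 3) for Aen; the other 7 genes were called in all 8. Stem cell markers summed to 1487 to 2354 CPM in flox/flox and 5457 to 7587 in flox/+ cultures, and their part was not tested.

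Against CreER-only organoids, a comparison that shares the flox/flox cultures, 7 of 10 genes were called higher, where 21.9% of all genes were (45.3% in either direction). Zmat3 was higher by 1.56 ± 0.17 (SE, adjusted p = 2.92e-05), Phlda3 by 1.402 ± 0.33 (SE, adjusted p = 0.00548), Ccng1 by 1.13 ± 0.21 (SE, adjusted p = 0.00122), Bax by 0.74 ± 0.13 (SE, adjusted p = 0.000296) and Mdm2 by 0.56 ± 0.12 (SE, adjusted p = 0.00186). Cdkn1a at 0.52 ± 0.18 (SE, adjusted p = 0.0325) and Aen at 0.29 ± 0.11 (SE, adjusted p = 0.0414) overlapped between groups. Eda2r at 1.34 ± 0.58 (SE, adjusted p = 0.0875), Bbc3 at 0.28 ± 0.11 (SE, adjusted p = 0.0562) and Trp53inp1 at 0.65 ± 0.27 (SE, adjusted p = 0.0742) were not called. Without flox/flox replicate 3 the Cdkn1a value was not called (adjusted p = 0.0903), nor was Aen without CreER-only replicate 4 (adjusted p = 0.118). The number called ran from 5 to 8 over fits without 1 culture and was 5 without flox/flox replicate 3, flox/flox replicate 4 or CreER-only replicate 4. Loss of 1 Eif4g2 allele was read from flox/+ against CreER-only cultures, in which the log2 fold change of Eif4g2 itself was -0.68 ± 0.07. No p53 target gene was called there by edgeR or DESeq2 (1 at an unadjusted p under 0.05), where 0.113% of all genes were called, and 9 of the 10 log2 fold changes were below 0. The lowest were Eda2r at -1.15 ± 0.62 and Zmat3 at -0.53 ± 0.18, and the other 8 lay between -0.34 (Phlda3) and 0.03 (Cdkn1a).

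Fetal spheroids already had higher levels of all 10 genes than adult organoids of the same genotype and treatment (flox/+ with 4-OHT), where 22.9% of all genes tested were called higher (37.9% in either direction). Eda2r was at 196, 193, 180.2, 133 and 39.7 CPM in the 5 spheroid lines and 0.555, 7.09, 9.03 and 6.28 CPM in the 4 organoid cultures, for 4.71 ± 0.63 (SE, adjusted p = 1.60e-06). Phlda3 was at 168, 152, 152, 68.3 and 45.02 against 11.6, 4.45, 6.14 and 5.97 CPM, for 4.09 ± 0.56 (SE, adjusted p = 1.76e-06), and Cdkn1a at 759.6, 705, 626, 546 and 243 against 114, 88.7, 86.7 and 85.6 CPM, for 2.64 ± 0.31 (SE, adjusted p = 1.88e-07). In all 3 genes line 5 was the lowest spheroid library and still lay above all organoid libraries. Trp53inp1 differed by 3.14 ± 0.36, Zmat3 by 2.98 ± 0.26, Ccng1 by 2.91 ± 0.30, Bax by 1.59 ± 0.31, Bbc3 by 1.16 ± 0.33 and Aen by 0.75 ± 0.23, without overlap (9 of the 10 genes, against 21.4% of all genes), and Mdm2 by 1.35 ± 0.29, with overlap through line 5. Stromal and muscle markers summed to 7.89 to 11.6 CPM in the organoids and 12.7 to 181 CPM in the spheroids, and goblet cell markers to 1629 to 2436 and 5273 to 7142 CPM. Proliferation markers summed to 1711 to 2082 CPM in the organoids and 653 to 1284 CPM in the spheroids, and mitochondrial reads were 2.44 to 3.05% and 4.82 to 11.1% of the libraries. Culture type cannot be told apart from line here, and the part of these differences was not tested. Trp53 itself did not pass the test in that comparison, at 0.08 ± 0.16 (SE, adjusted p = 0.729). The 10 genes were also called in each fit that left out 1 library, and without the 4 lines high in stem cell markers, an alternative chosen after seeing the data.

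In flox/flox spheroid lines 4-OHT raised Mdm2 and Zmat3, 2 of 10 genes, where 9.01% of all genes tested were called higher (19.1% in either direction). Mdm2 was at 82.8 to 187 (median 133) CPM with DMSO and 127 to 303 (median 274) CPM with 4-OHT in the 6 lines, for 0.90 ± 0.28 (SE, adjusted p = 0.0287). Zmat3 was at 161 to 301 (median 251) and 266 to 433 (median 419) CPM, for 0.70 ± 0.22 (SE, adjusted p = 0.032). Both were higher with 4-OHT in all 6 lines, although the groups overlapped. Line 3, one of those high in stem cell markers, was the lowest of the 6 for both genes in each treatment. Both calls were lost in 7 of 12 fits that left out 1 library, with adjusted p up to 0.0706 for Mdm2 (without DMSO replicate 1) and 0.0748 for Zmat3 (without DMSO replicate 3), and the count was 0 without 4-OHT replicate 2, 4, 5 or 6 or DMSO replicate 1, 3 or 5. With line as a block, which pairs each line with itself, 5 genes were called: besides Mdm2 and Zmat3 these were Ccng1 (0.57, adjusted p = 0.00132), Trp53inp1 (0.46, adjusted p = 0.0124) and Phlda3 (0.35, adjusted p = 0.0236). Ccng1, at 647 to 1360.4 (median 1013) CPM with DMSO and 975 to 2326 (median 1539) CPM with 4-OHT, and Trp53inp1, at 133 to 379 (median 262) and 141 to 515 (median 401) CPM, were also higher with 4-OHT in all 6 lines, as was Phlda3. Cdkn1a was higher in 3 of the 6 lines, at 371 to 720.2 (median 602) CPM with DMSO and 402 to 692 (median 558) CPM with 4-OHT, for -0.07 ± 0.28 (SE, adjusted p = 0.902). In the 4 flox/flox lines low in stem cell markers the block again gave 5 calls, with Eda2r (0.37, adjusted p = 0.047) in place of Phlda3 (0.31, adjusted p = 0.0806). Goblet cell markers summed to 2616 to 16846 CPM with DMSO and 145 to 1212 CPM with 4-OHT over the 6 lines, without overlap, and enterocyte markers to 766 to 8021 and 18.7 to 6126 CPM, with medians of 3223 and 155 CPM. Their part in the results was not tested.

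Flox/+ spheroids given 4-OHT showed no called member by edgeR or DESeq2 (none at an unadjusted p under 0.05), in a comparison where 0% of all genes were called. Mdm2 there was at 108, 142, 176, 95.9 and 60.03 CPM with DMSO and 183, 179.8, 179, 127 and 66.9 CPM with 4-OHT, higher in all 5 lines, for 0.34 ± 0.31 (SE, adjusted p = 1). Ccng1, Trp53inp1 and Eda2r were also higher with 4-OHT in all 5 flox/+ lines, by ratios within a line of 1.05 to 1.47, 1.02 to 1.57 and 1.10 to 1.45. Whether the 4-OHT effect differed between flox/flox and flox/+ lines was tested directly: no member was called (none at an unadjusted p under 0.05, and none by DESeq2), where 1.62% of all genes were, and with line as a block Mdm2 alone was (0.56, adjusted p = 0.0236). Between genotypes with 4-OHT, where 10.5% of all genes were called, no member was called by edgeR or DESeq2 (2 at an unadjusted p under 0.05). The largest difference was that of Mdm2, 0.76 ± 0.30 (SE, adjusted p = 0.108), followed by Zmat3, 0.62 ± 0.23 (SE, adjusted p = 0.0924). With DMSO no member and 0% of all genes were called by edgeR (no member by DESeq2 or at an unadjusted p under 0.05). Over the 7 lines low in stem cell markers the 4-OHT comparison between genotypes called Mdm2 (0.65, adjusted p = 0.0432) and Zmat3 (0.62, adjusted p = 0.047). The flox/flox minus flox/+ effect with 4-OHT did not differ by call between spheroids and organoids for any member over all lines (4 at an unadjusted p under 0.05; 1, Zmat3, by DESeq2), where 0.0815% of all genes differed. Over the 7 lines low in stem cell markers it was smaller in spheroids for Zmat3 (-1.48, adjusted p = 0.0017), Eda2r (-2.52, adjusted p = 0.0355) and Phlda3 (-1.76, adjusted p = 0.0456).

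**Figure D2:**
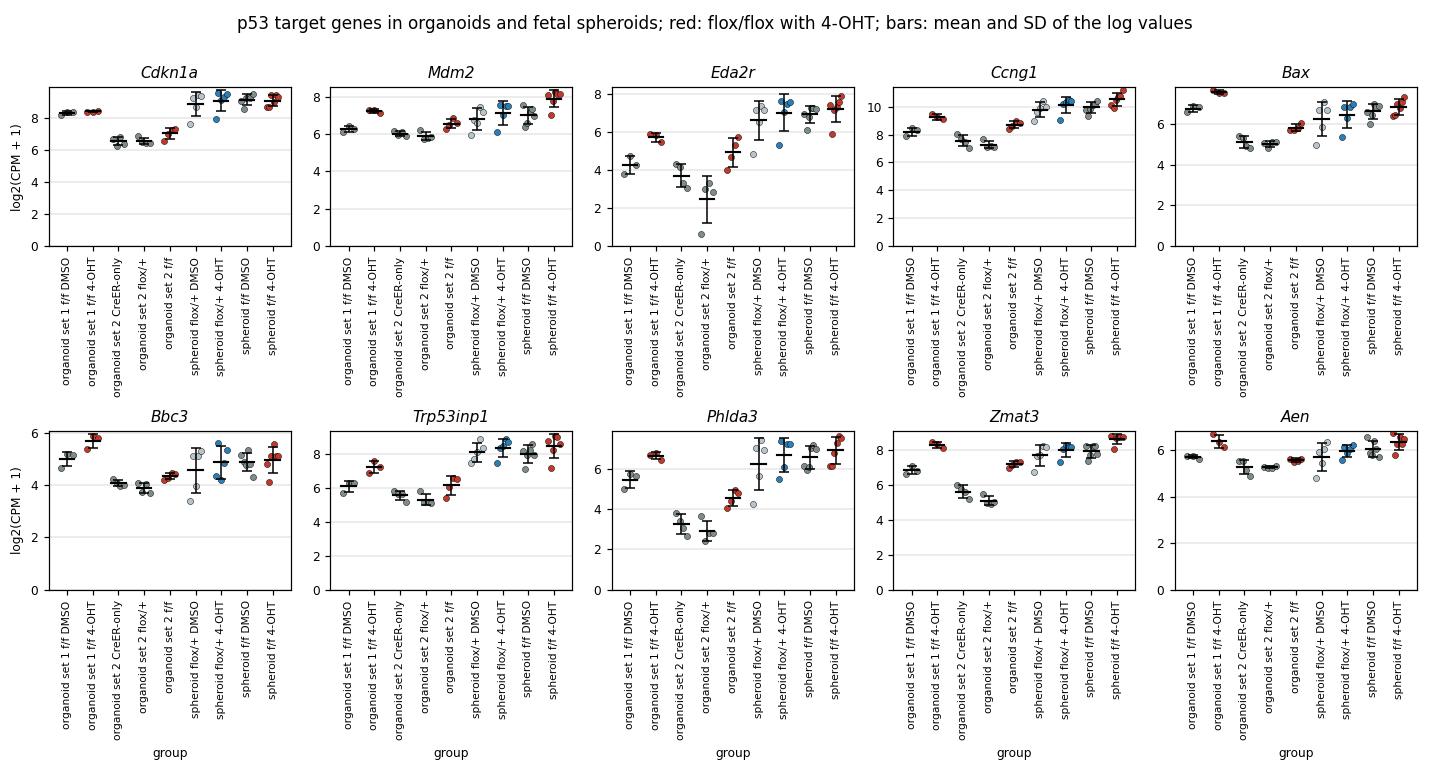
Levels of the 10 p53 target genes in organoid and spheroid cultures, as log2(CPM + 1) on the vertical axis, by group on the horizontal axis; each point is a culture, red marks flox/flox (f/f) with 4-OHT, blue flox/+ spheroids with 4-OHT and grey all other groups, and bars give the mean and SD of the log values. The first organoid set was scaled apart from the other groups. Zmat3 in the second organoid set is at 123 CPM or more in each flox/flox culture and below 62 CPM in the others. With 4-OHT, flox/+ spheroids lie above flox/+ organoids of the second set for all genes but Mdm2, which overlaps.

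A-485 is a catalytic inhibitor of the acetyltransferases p300 and CBP, co-activators that also acetylate p53; their genes are Ep300 and Crebbp. It was given to intact organoids, with Eif4g2 at 1183 to 1361 CPM in group means. Across doses the 3 comparisons share the DMSO libraries. At 3 µM 7 of 10 genes were higher than with DMSO, where 10.8% of all genes tested were called higher (19.2% in either direction), and Cdkn1a, Bbc3 and Aen were not called. At 5 µM 8 genes were higher, where 24.4% of all genes were (49.6%), and at 10 µM 8, where 29.4% were (62%); Bbc3 and Aen were not called at either. The members' median log2 fold changes were 1.03, 1.43 and 1.36, against 0.00, -0.02 and -0.05 over all genes.

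Trp53inp1 changed most. In lines S6026, S6070, S6074 and S6076 it was at 43.6, 42.1, 38.7 and 33.3 CPM with DMSO, 157, 136, 91.9 and 164 at 3 µM, 193, 230.2, 157 and 278 at 5 µM and 268, 305, 271 and 291 CPM at 10 µM. It rose at each step of dose in every line, and its log2 fold changes against DMSO were 1.79 ± 0.19 (SE, adjusted p = 2.50e-06), 2.44 ± 0.19 (SE, adjusted p = 1.48e-08) and 2.84 ± 0.19 (SE, adjusted p = 7.45e-10). Mdm2 went from 36.6, 45.6, 41.2 and 35.4 CPM with DMSO through 95.99, 78.4, 58.4 and 97.3 and 128, 128, 102 and 158 to 182, 211, 182 and 205 CPM, likewise at each step in every line, with 1.05 ± 0.16, 1.701 ± 0.16 and 2.29 ± 0.17 (SE, adjusted p = 2.03e-09). Ccng1 went from 233, 226, 176 and 172 to 872, 938, 769.6 and 1008 CPM at 10 µM, rising at each step in every line, with 1.35 ± 0.17, 1.97 ± 0.17 and 2.15 ± 0.17 (SE, adjusted p = 6.84e-09). These 3 genes were graded with dose, and their 10 µM levels did not overlap with those at 3 µM.

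For Zmat3 and Eda2r no difference was called between 3 and 10 µM. Zmat3 was at 52.7, 47.4, 48.5 and 45.8 CPM with DMSO, 135, 136, 109.997 and 159.8 at 3 µM and 145, 136, 142 and 173 CPM at 10 µM, for 1.47 ± 0.14 (SE, adjusted p = 1.17e-06) at 3 µM and 1.61 ± 0.14 (SE, adjusted p = 2.11e-08) at 10 µM. Its levels at 3 and 10 µM overlapped, and the difference between them was 0.14 ± 0.14 (SE, adjusted p = 0.422). Eda2r was at 10.3, 11.3, 9.78 and 7.47 CPM with DMSO, 20.997, 19.9, 18.2 and 18.9 at 3 µM and 18.7, 18.8, 22.2 and 24.5 CPM at 10 µM, for 1.003 ± 0.21 (SE, adjusted p = 0.00263) and 1.11 ± 0.21 (SE, adjusted p = 0.00016), and its difference between the doses was 0.11 ± 0.21 (SE, adjusted p = 0.688). Cdkn1a had another pattern: 126, 142, 133 and 119 CPM with DMSO and 216, 153, 130.1 and 99.5 CPM at 3 µM overlapped, for 0.19 ± 0.17 (SE, adjusted p = 0.481), while 349, 293, 273 and 244 CPM at 5 µM and 278, 317, 289.5 and 226 CPM at 10 µM lay above DMSO in every line, for 1.15 ± 0.17 (SE, adjusted p = 3.04e-05) and 1.08 ± 0.17 (SE, adjusted p = 3.02e-05). In the 3 flox/flox lines alone the Cdkn1a value at 3 µM was -0.05, the Eif4g2 +/+ line S6026 having the highest level. Phlda3 went from 13.4, 11.5, 10.7 and 11.05 CPM to 51.9, 40.9, 36.1 and 17.6 at 3 µM and 62.3, 83.1, 52.02 and 44.3 CPM at 10 µM, for 1.64 ± 0.25 and 2.36 ± 0.26, and line S6076 was the lowest at 3, 5 and 10 µM. Bax rose by 0.63 ± 0.17 (SE, adjusted p = 0.0131) at 3 µM and 1.06 ± 0.17 (SE, adjusted p = 2.72e-05) at 10 µM. Bbc3, the BH3-only protein, was at 8.27, 7.01, 8.81 and 6.07 CPM with DMSO, 13.4, 12.7, 15.1 and 0 at 3 µM and 11.1, 8.44, 7.27 and 1.94 CPM at 10 µM, for -0.07 ± 0.70 (SE, adjusted p = 0.936) at 10 µM. Line S6076 had 0 Bbc3 reads at 3 µM, which allows up to 0.303 CPM, while the other 3 lines were at 12.7 to 15.1 CPM. Aen was at 23.3 to 30.002 CPM with DMSO and 18.7 to 29.8 CPM at 10 µM, for -0.13 ± 0.19 (SE, adjusted p = 0.559).

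Between 10 and 3 µM 6 genes differed, where 22.1% of all genes were higher at 10 µM (49.3% in either direction): Mdm2 by 1.24 ± 0.16 (SE, adjusted p = 5.49e-06), Trp53inp1 by 1.05 ± 0.18 (SE, adjusted p = 0.0001), Cdkn1a by 0.89 ± 0.17 (SE, adjusted p = 0.000353), Ccng1 by 0.80 ± 0.17 (SE, adjusted p = 0.000626), Phlda3 by 0.72 ± 0.24 (SE, adjusted p = 0.0193) and Bax by 0.43 ± 0.17 (SE, adjusted p = 0.0415). Without the 10 µM library of line S6070 4 were called, as Bax and Phlda3 were not (adjusted p = 0.142 and 0.0855), and Bax was called in 3 of 8 fits without 1 library. At 3 µM the Bax call was lost without line S6026 (adjusted p = 0.0804). The cultures changed with dose in other ways too: stem cell markers summed to 6391 to 7586 CPM with DMSO and 43.03 to 77.5 at 10 µM, enterocyte markers to 5067 to 10235 and 234 to 455, and proliferation markers to 1454 to 1523 and 335 to 429 CPM. Their part in the results was not tested.

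**Figure D3:**
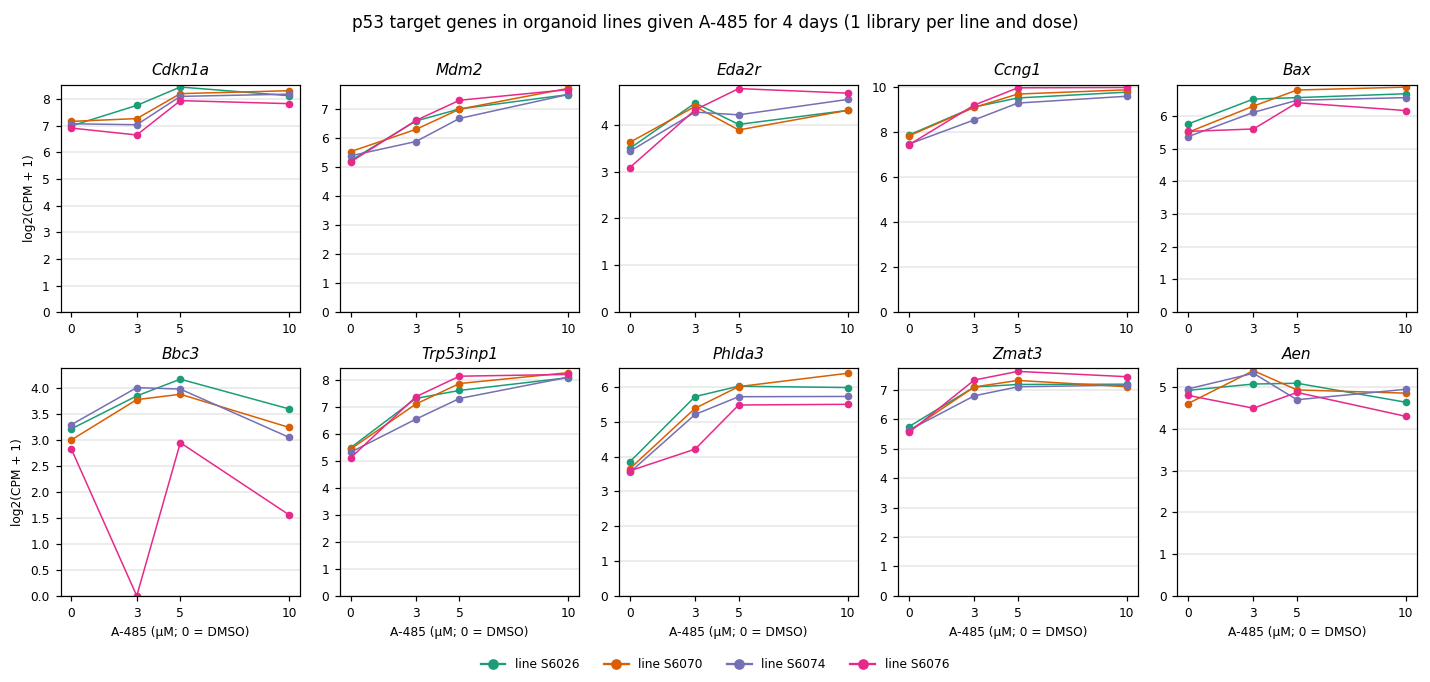
Levels of the 10 p53 target genes in 4 organoid lines, as log2(CPM + 1) on the vertical axis, against the A-485 dose in µM (0 is DMSO); each point is 1 library and lines join the doses of 1 organoid line. Trp53inp1, Mdm2 and Ccng1 rise at each step in every line, Zmat3 overlaps between 3 and 10 µM, Aen overlaps with DMSO at each dose, and Bbc3 of line S6076 is at 0 reads at 3 µM.

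**Figure D4:**
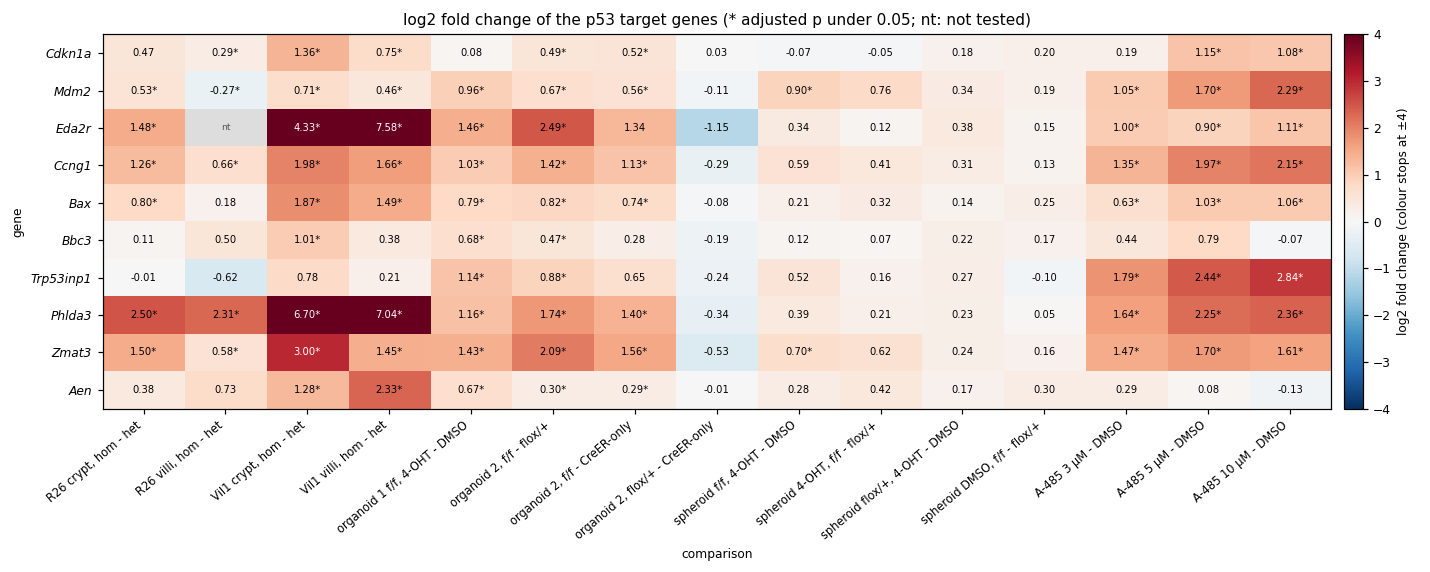
Log2 fold change (colour and printed value) of each of the 10 p53 target genes (rows) in 15 comparisons (columns); an asterisk marks an adjusted p under 0.05 and nt a gene not tested. Zmat3 is called in 8 of the 9 deletion comparisons, Trp53inp1 in 2, and no gene is called in flox/+ against CreER-only organoids, in flox/+ spheroids with 4-OHT or in DMSO spheroids.

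Other genes of the p53 network were counted from 6 lists: p53 with its regulators, other targets in 3 lists by function, CDK inhibitors and the BCL2 family. Where a gene is given as called in a number of the 9 deletion comparisons, the same count over all genes was not made. From 10.5% to 46.8% of all genes were called in a single comparison, and some comparisons share libraries. Trp53 RNA went both ways after deletion, at -0.46 ± 0.12 (SE, adjusted p = 0.0256) in Rosa26-CreER crypts, 0.50 ± 0.13 (SE, adjusted p = 0.00775) in Vil1-CreER villi and -0.23 ± 0.09 (SE, adjusted p = 0.0415) in flox/flox against flox/+ organoids, and was lower with A-485 at 10 µM, at -0.73 ± 0.14 (SE, adjusted p = 0.000235). The p300 gene Ep300 was called higher in all 9 deletion comparisons, for instance by 1.52 ± 0.07 (SE, adjusted p = 8.67e-10) in organoids and 1.28 ± 0.25 (SE, adjusted p = 0.00131) in spheroids, and Crebbp, its paralog, in 8 of 9. Usp7, a deubiquitinase of Mdm2 and p53, was higher in 6. Mdm4, the other inhibitor of p53, was called in 2 of the 9, Vil1-CreER villi and the first organoid set. Over the 9 deletion comparisons the regulator list had from 2 to 8 genes called higher and from 0 to 4 lower, of 14 or 15 tested. It had 8 higher and 2 lower of 15 in Vil1-CreER villi, 5 and 4 in flox/flox against flox/+ organoids and 4 and 3 in Vil1-CreER crypts. Of all genes 20.9%, 22.6% and 11.6% were called higher there, and 42.5%, 46.8% and 29.3% in either direction. With 10 µM A-485 3 were higher and 6 lower, where 29.4% of all genes were higher and 62% were called in either direction.

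Among other p53 targets, 2 were called higher in all 9 deletion comparisons: Tnfrsf10b, the death receptor for TRAIL, and Epha2, a receptor tyrosine kinase. How many of all genes were called in all 9 was not counted. Tnfrsf10b rose by 1.18 ± 0.11 (SE, adjusted p = 0.000266) in Rosa26-CreER crypts, 1.65 ± 0.14 (SE, adjusted p = 7.54e-07) in organoids and 1.01 ± 0.28 (SE, adjusted p = 0.0261) in 4-OHT spheroids, and by 2.86 ± 0.15 (SE, adjusted p = 6.06e-11) with 10 µM A-485. Epha2 rose by 1.89 ± 0.19 (SE, adjusted p = 0.000747) in the first organoid set and 3.41 ± 0.20 (SE, adjusted p = 1.44e-10) with 10 µM A-485. Of the 12 targets in cell cycle and growth, 8 were higher and 1 lower in Vil1-CreER crypts, where 11.6% of all genes were higher (29.3% in either direction). In flox/flox against flox/+ organoids 6 were higher and 1 lower, where 22.6% were higher (46.8%). In Rosa26-CreER crypts 2 were higher and 1 lower, where 8.63% were higher (20.2% in either direction). In Rosa26-CreER villi 2 were higher and 4 lower, where 15% were higher and 18.2% lower. Between genotypes of 4-OHT spheroids 1 was higher and 1 lower, where 10.5% of all genes were called in either direction. Psrc1 and Gtse1, both microtubule-associated, were higher in 6 of 9 comparisons and Plk2, a stress-induced kinase, in 5. Btg2 and Sesn1 were called lower in 4 each, while Sesn2, the other stress-induced sestrin, was higher in 5 and lower in 1. Of 9 tested targets in cell death 6 were higher and 1 lower in the first organoid set, where 18.2% of all genes were higher (35.4% in either direction). In Vil1-CreER villi 4 of 9 were higher and 2 lower, where 20.9% were higher (42.5%). In Rosa26-CreER villi 3 of 10 were higher and 2 lower, where 15% of all genes were higher and 18.2% lower. Between the spheroid genotypes with 4-OHT 2 of 9 were higher and none lower, where 10.5% were called in either direction. Perp, a desmosomal membrane protein, and Apaf1, the apoptosome scaffold, were higher in 6 of 9 comparisons. Of 11 tested targets in DNA repair and metabolism 8 were higher and none lower in the first organoid set. Of all genes 18.2% were higher there (35.4% in either direction). The same list had 0 higher and 2 lower of 10 in Rosa26-CreER villi and 2 and 1 of 11 in Rosa26-CreER crypts. In those 15% and 8.63% of all genes were higher, and 33.2% and 20.2% were called in either direction. In flox/flox spheroids 0 of 12 were higher and 0 lower, where 9.01% of all genes were higher (19.1% in either direction). Polk, a translesion polymerase, and Tigar, a fructose bisphosphatase, were each higher in 5 of 9 comparisons.

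CDK inhibitors besides Cdkn1a split, with 2 of 6 called higher and 3 lower in crypts and likewise in villi of Vil1-CreER mice, 4 higher and 2 lower in flox/flox against +/+ organoids, and 0 higher and 1 lower in flox/flox spheroids. Of all genes 11.6%, 20.9%, 21.9% and 9.01% were called higher there, and 29.3%, 42.5%, 45.3% and 19.1% in either direction. Cdkn2b (p15) was called higher in 7 of 9 comparisons and Cdkn1c (p57) lower in 8, at -3.03 ± 0.39 (SE, adjusted p = 4.88e-05) in Vil1-CreER villi. Cdkn2a, which encodes p16 and the Mdm2 inhibitor p19Arf, was too low to be tested in Rosa26-CreER tissue. In Vil1-CreER crypts it went from a mean of 0.021 CPM in heterozygous to 16.7 CPM in homozygous libraries (adjusted p = 7.86e-05), a control level too low for a fold change, and it rose by 2.31 ± 0.70 (SE, adjusted p = 0.0204) in organoids. With A-485 it had the largest rise of any gene of the 6 lists at 10 µM, 4.52 ± 0.32 (SE, adjusted p = 1.52e-09), and the largest fall was that of Ptp4a3, a tyrosine phosphatase gene, -3.31 ± 0.34 (SE, adjusted p = 1.69e-07). In the BCL2 family 5 of 10 tested genes were higher and 1 lower in the first organoid set. Of all genes 18.2% were higher there (35.4% in either direction). In Vil1-CreER villi 0 of 9 were higher and 3 lower, where 20.9% were higher (42.5% in either direction). In Rosa26-CreER villi 2 of 9 were higher and 2 lower, where 15% of all genes were higher and 18.2% lower. In Vil1-CreER crypts 1 of 10 was higher and 1 lower, where 11.6% were higher (29.3% in either direction). Bmf, a BH3-only protein, was called lower in all 9 deletion comparisons, at -2.12 ± 0.27 (SE, adjusted p = 2.56e-05) in flox/flox spheroids, while Bid and Mcl1 were higher in 5 each.

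**Figure D5:**
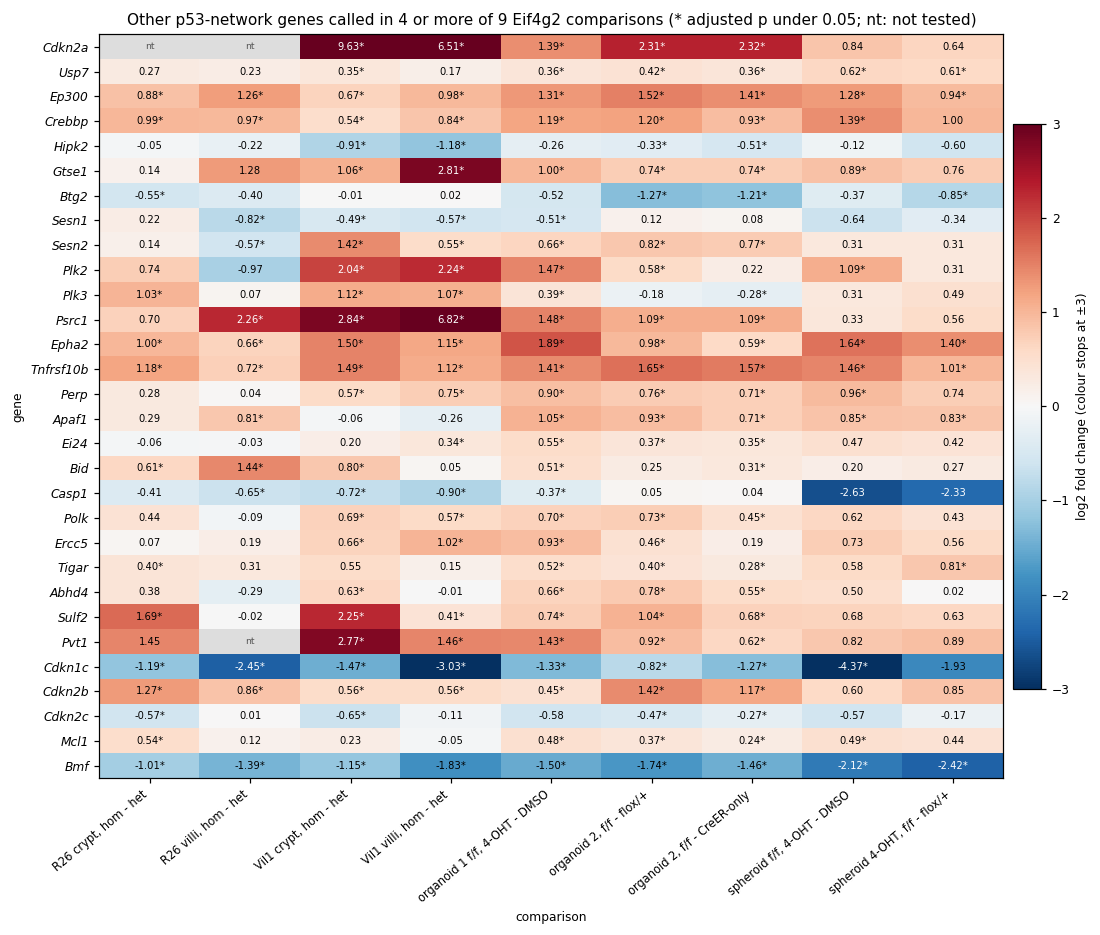
Log2 fold change (colour and printed value) of the 30 other p53-network genes called in at least 4 of 9 Eif4g2 comparisons (rows) by comparison (columns); an asterisk marks an adjusted p under 0.05 and nt a gene not tested. Ep300, Epha2 and Tnfrsf10b are higher and Bmf lower in all 9 columns. Some columns share libraries, and the share of all genes called as often was not counted.

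Over the 21 group means, centred within 8 kinds of sample, the genes whose pattern was most like that of Cdkn1a among 9218 compared were Mfsd5 (Pearson r = 0.93), Map1lc3a (0.92) and Hk1 (0.90). Of the other members Ccng1 (0.89) ranked 7th and Bax (0.88) 8th, Phlda3 78th and Zmat3 98th, and Aen (0.55) came last at rank 1699. Among the members themselves the closest pair was Ccng1 and Bax (0.96) and the least alike Trp53inp1 and Aen (0.18). These values describe 21 points that share tables and, in part, lines or animals.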

How the data were processed

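Poly(A) RNA of mouse crypts, villi, organoids and spheroids was sequenced, and the authors deposited raw read counts per gene in 4 tables. HISAT2 2.0.5 and GRCm38 (mm10) are named in the submitters' processing notes; the counting program, its strand setting and the annotation release are not given in the sources used here. All 92 libraries were used, in 21 groups. The rows for the p53 target genes were taken by name. Each of 23 comparisons was fitted on the whole table with edgeR 4.0.16 (R 4.3.3; filterByExpr, TMM, robust quasi-likelihood, two-sided tests, Benjamini-Hochberg adjustment, called under 0.05), checked on simulated data. DESeq2 1.42.0, its size factors, no filter, other fits, replicate blocks, Ddx3y status and leaving out each library were the alternatives. The block pairs libraries by line in the first organoids, spheroids and A-485 cultures, and by animal in crypts and villi. Replicate numbers follow the line or animal there, with an exception in Vil1-CreER homozygous mice. Their crypt replicate 3 is from the animal of villus replicate 4. Deviations of paired libraries correlated at 0.318 to 0.501 (first organoids), 0.385 to 0.783 (flox/flox spheroids) and 0.626 to 0.857 (flox/+ spheroids). Correlations were weaker, at 0.0556 to 0.321 (A-485 at 3 µM), 0.0784 to 0.275 (5 µM) and 0.101 to 0.203 (10 µM). Between heterozygous crypts and villi they were -0.00247 to 0.164 in Rosa26-CreER and 0.0481 to 0.296 in Vil1-CreER mice. Other shared numbers do not pair samples. Where nothing says that cultures are of separate animals, p-values measure only the spread between them. The genes, lists and the rule for naming network genes (called in at least 4 of the 9 deletion comparisons, or most changed at 10 µM A-485) were chosen with earlier results of these data known. Limits for 0 reads cover counting error only.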

Additional observations from a re-analysis of the deposited data

Results flagged for a closer look

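Each of the 10 genes was looked at in each group of 4 to 6 libraries, 180 combinations of gene and group in all, and 15 gene values stood apart from the rest of their group by Dixon's gap ratio at the 95% level, where chance marks about 1 in 20. Flox/+ organoid replicate 1 was high for Cdkn1a (114 CPM, next 88.7), Ccng1 (201, next 147) and Trp53inp1 (54.8, next 34.6), and replicate 2 was low for Bax (26.8, next 32.7). In Rosa26-CreER homozygous villi replicate 3 was low for Mdm2 (50.3, next 60.6) and high for Eda2r (1.46, next 0.595) and Phlda3 (2.46, next 0.707). In heterozygous villi of those mice replicate 3 was high for Phlda3 (0.650 CPM, next 0.134). In Vil1-CreER mice, heterozygous crypt replicate 2 was low for Cdkn1a (31.2, next 45.1), heterozygous villus replicate 3 was high for Trp53inp1 (40.9, next 33.5), and homozygous villus replicate 1 was high for Ccng1 (307, next 199) and Trp53inp1 (65.5, next 42.1). Among spheroids with 4-OHT, flox/+ replicate 5 was low for Ccng1 (538, next 1176) and flox/flox replicate 3 was low for Zmat3 (266, next 407). The Bbc3 value of line S6076 at 3 µM A-485 was 0 CPM (next 12.7), in a library of 9334286 reads.

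The genotype effect differed between villi and crypts, by a test of the difference in edgeR, in 5 cases. In Rosa26-CreER mice these were Mdm2 (-0.69, adjusted p = 0.00234) and Zmat3 (-0.82, adjusted p = 0.0101). In Vil1-CreER mice they were Eda2r (3.30, adjusted p = 0.00536), Zmat3 (-1.53, adjusted p = 0.000157) and Aen (1.07, adjusted p = 0.02). The Eda2r value rests on heterozygous villi with 0 to 4 reads.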

How the results depend on the processing

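Counts of called members stayed within 1.5 times the reported ones except as follows. In Rosa26-CreER villi, Ddx3y status as a covariate gave 3. In flox/flox spheroids the replicate block by line gave 5, and gave 5 in the 4 lines low in stem cell markers. The 7 lines low in stem cell markers, an alternative chosen after seeing the data, gave 2 between genotypes with 4-OHT and 3 for the difference between spheroids and organoids, where DESeq2 gave 1. The replicate block gave 1 for the difference in 4-OHT effect between genotypes. Leaving out 1 library gave 6 to 7 in Rosa26-CreER and 9 to 10 in Vil1-CreER crypts, 3 to 6 and 6 to 8 in villi, 7 to 9 in the first organoids, 7 to 9 and 5 to 8 in the second (flox/flox against flox/+ and CreER-only), 0 to 2 in flox/flox spheroids and 0 to 1 between spheroid genotypes with 4-OHT. It gave 6 to 7, 8 to 8 and 8 to 8 with A-485 at 3, 5 and 10 µM, 4 to 7 between 10 and 3 µM, and 6 to 8 between crypts and villi of each driver. It gave 2 to 3 and 2 to 4 for the villus minus crypt differences in Rosa26-CreER and Vil1-CreER mice, 0 to 1 for spheroids minus organoids, and 10 to 10 for spheroids against organoids. The paired fits changed no other call; blocking on numbers that do not pair samples (same-number correlations from 0.0366 to 0.599 in Rosa26-CreER crypts and -0.164 to 0.254 in villi) left every count within 1.5 times, lost the calls of Cdkn1a and Mdm2 in Rosa26-CreER villi, Mdm2 in Vil1-CreER villi, and Cdkn1a and Trp53inp1 in the second organoids, and gained that of Aen in Rosa26-CreER villi. Other single calls that moved without a filter, with DESeq2, with a covariate or with other libraries in the fit were those of Cdkn1a (both villi, second organoids), Bbc3, Trp53inp1, Aen, Bax, Phlda3, Mdm2, Ccng1 and Zmat3. Not all moved by little: with the A-485 libraries in the edgeR fit, Bbc3 in the first organoids had an adjusted p of 0.552. Single calls of the Ddx3y fit of Rosa26-CreER crypts are left out here, since its genotype effect rests on 1 homozygous library.

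For single genes, 30 of the alternative values had the opposite sign, all of genes not called; the cause was not tested. In Rosa26-CreER crypts the Ddx3y covariate, with a genotype effect that rests on 1 homozygous library, gave -0.086 for Bbc3, -0.069 for Aen and 0.052 for Trp53inp1. No filter gave 0.018 for Trp53inp1 there. Between spheroid genotypes with 4-OHT the block on replicate number gave 0.064 for Cdkn1a, and the 7 lines gave -0.0093 for Eda2r, -0.14 for Bbc3 and -0.013 for Phlda3. The 3 flox/flox lines gave -0.046 for Cdkn1a at 3 µM A-485. Over fits that left out 1 library, Trp53inp1 ranged from -0.13 to 0.16 in Rosa26-CreER crypts and from -0.18 to 0.24 between Vil1-CreER crypts and villi. In flox/flox spheroids Cdkn1a ranged from -0.17 to 0.0080 and Bbc3 from -0.013 to 0.26. Between spheroid genotypes with 4-OHT, Cdkn1a ranged from -0.25 to 0.073, Eda2r from -0.13 to 0.29, Bbc3 from -0.089 to 0.29, Trp53inp1 from -0.0098 to 0.33 and Phlda3 from -0.0012 to 0.38. With A-485 Cdkn1a ranged from -0.034 to 0.34 at 3 µM and Bbc3 from -0.35 to 0.23 at 10 µM. Depth limits Eda2r and Phlda3 in heterozygous villi, where 0 to 11 reads were counted.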
